A study of Mus musculus with 6 samples.

Results

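Kinesins, cytoplasmic dynein and dynactin are the motors that carry cargo along microtubules, and the genes that encode them were followed in the dorsal root ganglia (DRGs) of Meis1cko and control mice. All probe sets that the array's annotation pairs with a single gene whose symbol begins with Kif, Klc or Dctn and a number, or with Dync or Dynl, were taken, whatever their values. The rule found 141 probe sets of 59 genes, among 34945 probe sets paired with a single gene and 18193 genes on the array. Of the 59 genes, 40 gene symbols belong to kinesin heavy or light chains and 19 to dynein or dynactin. The brightest probe set of a gene, with the highest mean log2 intensity over the 6 arrays, stands for that gene, and its other probe sets are described where they differ.

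A DRG neuron keeps its cell body in the ganglion and sends an axon to the skin and another branch to the spinal cord, so nearly all proteins and organelles of its endings travel along microtubules. Most kinesins walk toward the plus ends of microtubules, which point away from the cell body in axons, and carry vesicles, mitochondria and channels outward. Cytoplasmic dynein walks the other way, needs dynactin and an adaptor for long runs, and brings endosomes with neurotrophin receptors, worn organelles and injury signals back to the cell body. Other kinesins build the mitotic spindle or work in cilia.

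Meis1cko mice carried a floxed allele of the homeobox gene Meis1 (Meis1F) and Nav1.8-Cre, a transgene in which a fragment of the Nav1.8 promoter drives Cre in most nociceptors from late embryonic stages, while the other mice are labelled control, with no alleles given for the arrays. Neither group was treated. Cervical, thoracic and lumbar DRGs were taken at P60, at about 2 months of age, from 3 Meis1cko and 3 control mice, with 1 Affymetrix mouse genome array per mouse and 1 colour, and mice of both sexes were used in the study. Whole ganglia were measured, so cells without Cre contribute to every value, and fewer cells of a type and less RNA per cell cannot be told apart. The deposited values are normalized intensities on a linear scale, and intensities of different probe sets are not compared with each other because probes bind with different strength.

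The values of the deleted gene itself come first. At P60 the study found Meis1 only in some large neurons and no longer in nociceptors. It checked the deletion in nociceptors at earlier ages, which the whole-ganglion values here do not show. The brightest Meis1 probe set read 66.0, 72.1 and 64.2 in Meis1cko DRGs, against 109.7, 144 and 90.2 in control DRGs. The log2 fold change was -0.74 (SE 0.18), although where this probe set lies relative to the deleted exon was not determined. Limma, described below, did not call it after adjustment, nor when arrays of the same number were compared (adjusted p = 0.16). A dimmer Meis1 set was higher in Meis1cko DRGs without overlap (0.13, SE 0.11). The dimmest set differed by -0.16 (SE 0.19) with overlap. In each genotype the replicate 3 array stood apart. The 3′ control probe set of Actb exceeded the 5′ one, a measure of how complete the labelled RNA is, by a log2 difference that was between 0.42 and 0.44 on both replicate 3 arrays and between 1.23 and 1.66 on the other 4 and that averaged 1.14 in Meis1cko and 0.98 in control DRGs. General neuron markers were bright, as the labelled tissue requires (12 of 12 reached the median over all probe sets, 64.8, with a summed intensity between 115781 and 126907 in Meis1cko and between 113438 and 123363 in control DRGs). Fibroblast markers summed to between 13908 and 17674 in Meis1cko and between 16349 and 27526 in control DRGs, with 9 of 10 below 0 on the log2 fold change scale and a median of -0.37, and macrophage markers, with the same median and 9 of 10 below 0, summed to between 973 and 1791 in Meis1cko and between 1388 and 2273 in control DRGs. Markers of large neurons summed to between 26907 and 28572 in Meis1cko and between 24861 and 26359 in control DRGs, with 9 of 10 above 0 and a median of 0.16. Schwann cell markers summed to between 24384 and 25798 in Meis1cko and between 25899 and 28081 in control DRGs, with 5 of 8 below 0 and a median of -0.04. The sums of the genotypes did not overlap for large neurons and Schwann cells and overlapped for fibroblasts and macrophages. The brightest genes weigh most in such sums, with single values up to 13905 for large neurons and 14295 for Schwann cells. Overlap of the sums therefore does not tell how many genes of a list differed. The part of RNA quality and of these other cells in the differences below was not tested.

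Most motor genes had nearly the same level in both genotypes. The median log2 fold change, Meis1cko minus control, was 0.02 over the 59 genes and -0.01 over all 18193 genes, and 50 of the 59 (84.7%) lay within 0.2 of 0, against 83.0% of all genes. With limma, which fits a linear model to every probe set and steadies its error with that of the others, and Benjamini-Hochberg adjustment over the 45037 probe sets tested, 0 of 59 genes passed an adjusted p of 0.05, where 0.0055% of all genes were called higher and 0% lower. At an unadjusted limma p under 0.05 there were 3 members (Dynlt1f, Kif21a and Klc4), or 5.08%, against 2.56% of all genes. The groups did not overlap in 5 members that were higher in Meis1cko DRGs (Dynlt1f, Kif21a, Klc4, Kif2b and Kif20b), where 3.12% of all genes were, and in 4 that were lower (Dctn3, Dctn4, Dynlrb1 and Kif18b), where 3.82% of all genes were. For 3 arrays against 3, the smallest two-sided p of an exact permutation test is 0.1, which each of these genes has. Among them, Kif2b and Kif20b were dim, below the 25th percentile of all probe sets, and Kif18b lay below the median.

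**Figure D1:**
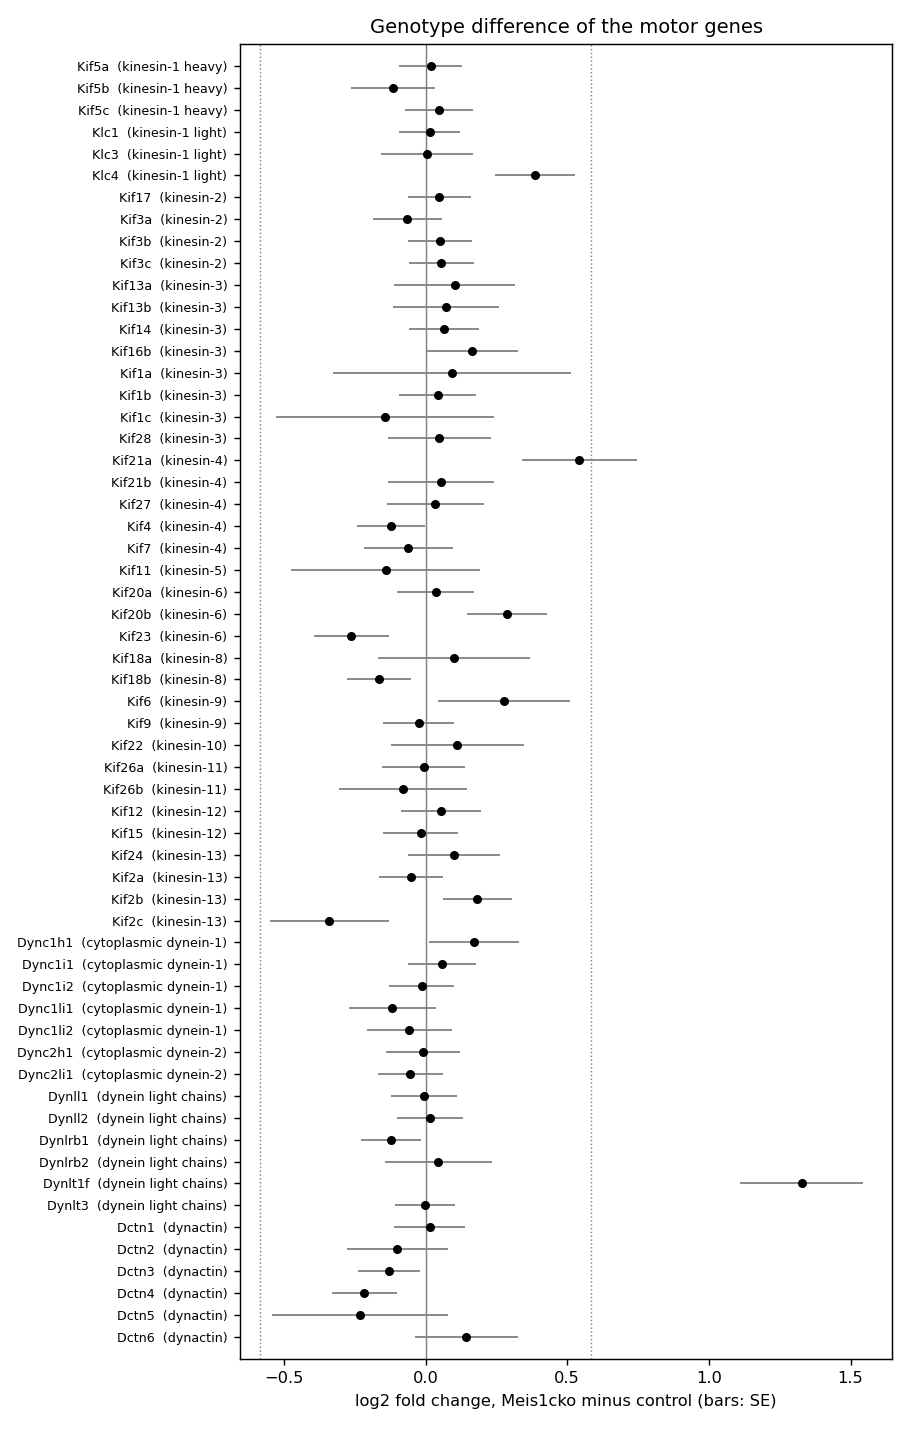
Log2 fold change (Meis1cko minus control, x axis) of the 59 motor genes by their brightest probe set, grouped by subfamily on the y axis, with the standard error of limma as bars and dotted lines at a fold of 1.5 in either direction. Dynlt1f at 1.33 lies beyond the dotted lines, Kif21a at 0.54 and Klc4 at 0.39 come next, and 50 of the 59 points lie within 0.2 of 0.

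Dynlt1f was the member that differed most between the genotypes. It is a copy of Dynlt1, which encodes the Tctex-type light chain of cytoplasmic dynein, a small subunit that binds the intermediate chain and some cargo. The mouse genome holds several nearly identical copies on chromosome 17, named Dynlt1a, Dynlt1b, Dynlt1c and Dynlt1f. The start regions of a pair of them are shown as an example of how alike the copies are there. Where the probe sets lie in the transcripts was not determined, so these regions do not show which copies a probe set can tell apart. RefSeq's windows for Dynlt1c and Dynlt1f (GRCm38.p6, 250 bases before to 50 after the annotated start) overlapped over 192 aligned bases, of which 189 were the same (98.44%). The 142 bases that lie before the annotated start of Dynlt1f are printed from 5′ to 3′, chr17:6601529-6601670 on the plus strand for Dynlt1c and chr17:6655940-6656081 on the minus strand for Dynlt1f, with the bases that differ in capitals.
Dynlt1c: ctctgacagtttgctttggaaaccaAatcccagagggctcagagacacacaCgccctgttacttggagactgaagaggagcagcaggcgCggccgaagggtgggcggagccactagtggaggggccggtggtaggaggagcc
Dynlt1f: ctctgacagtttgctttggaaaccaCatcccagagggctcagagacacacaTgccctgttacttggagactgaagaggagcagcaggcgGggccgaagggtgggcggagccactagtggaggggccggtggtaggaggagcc
The substitutions, with the Dynlt1c base first and positions counted from 1 at the 5′ end of the printed stretch, are A26C, C52T and C90G. Both stretches hold TGACAG, the core that MEIS proteins are known to bind, at positions 4 to 9. Over all windows the letters were found on either strand for 10 of the 48 members with an entry (20.8%) and for 21.6% of all 27025 genes. A match is a description of the letters and says nothing of binding.

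The probe set listed for Dynlt1f alone and those listed for several copies differed in opposite directions. The Dynlt1f probe set read 184, 149 and 130.1 in Meis1cko DRGs, against 67.0, 73.8 and 45.7 in control DRGs. All Meis1cko values lay above all control values. The means were 154 ± 27.1 in Meis1cko and 62.2 ± 14.7 in control DRGs (SD, n = 3 mice each), and the log2 fold change was 1.33 (SE 0.22, 95% interval 0.82 to 1.83). In limma the adjusted p was 0.496 without pairing and 0.0233 with the replicate numbers as a block, which compares arrays of the same number, a setting in which 0.044% of all genes were called higher and 0.055% lower and Dynlt1f was the member called. What the numbers mark is not stated, and arrays of the same number resembled each other mostly through replicate 3. It was also the member past a fold of 1.5 with an unadjusted p under 0.05, thresholds passed by 0.324% of all genes as higher and 0.456% as lower. The name of the probe set ends in x, by which the maker marks sets with probes that also match other transcripts.

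The first of the probe sets listed for Dynlt1a, Dynlt1b, Dynlt1c and Dynlt1f together read 1992, 939.9 and 996 in Meis1cko DRGs, against 2655, 2307 and 2499.8 in control DRGs. The second read 1107, 549.8 and 665 in Meis1cko DRGs, against 1581, 1335 and 1426 in control DRGs. In both, every Meis1cko value was below every control value, and Meis1cko replicate 1 was the closest to the controls. The log2 fold changes were -1.01 (SE 0.28) and -0.96 (SE 0.25), with adjusted p of 0.192 and 0.141 in limma with the replicate block and no call without it. Leaving out 1 array gave between -1.36 (without Meis1cko replicate 1) and -0.82 (without Meis1cko replicate 2) for the first set and, without the same arrays, between -1.26 and -0.75 for the second. A probe set for Dynlt1a, Dynlt1c and Dynlt1f read 59.2, 43.8 and 42.4 in Meis1cko DRGs, against 59.8, 57.6 and 46.8 in control DRGs. These values overlapped (log2 fold change -0.19, SE 0.17). The level of a single copy cannot be read from the shared sets.

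**Figure D2:**
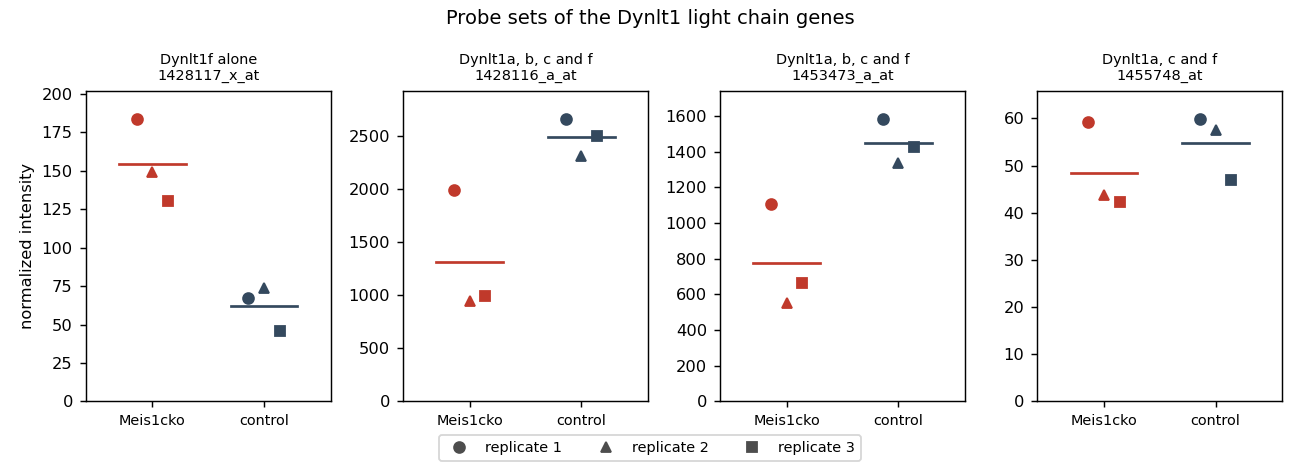
Normalized intensity (linear y axis from 0) of the 4 probe sets of the Dynlt1 copies in each array, Meis1cko on the left and control on the right, with marker shapes for the replicate and a line at the group mean. The set for Dynlt1f alone has all Meis1cko arrays above the controls (130.1 to 184 against 45.7 to 73.8), whereas both sets for all copies have them below (939.9 to 1992 against 2307 to 2655 in the brighter set).

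Genes that RefSeq places beside the Dynlt1 copies were looked up after these values had been seen. A probe set shared by the Tmem181 copies, whose gene and pseudogenes alternate with those of Dynlt1, read 472, 404 and 332 in Meis1cko DRGs, against 631, 576 and 541 in control DRGs. The groups did not overlap, with a log2 fold change of -0.54 (SE 0.16). The set of Tmem181a alone differed by -0.29 (SE 0.15) with overlap. Of the Ezr probe sets, 1 differed by -0.39 (SE 0.14) without overlap and another by -0.15 (SE 0.14), while those of Gtf2h5 and Serac1 lay between -0.08 and 0.07. Both Sytl3 sets are shared with other gene models, and 1 differed by -0.21 (SE 0.13) without overlap and the other by 0.05 (SE 0.22). None of these passed an adjusted p of 0.05.

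The other light chains were close in both genotypes. Dynll1 and Dynll2 encode the LC8 light chains, which also serve as dimerization hubs in proteins outside dynein. Dynll1 read 12434, 11269 and 11215 in Meis1cko DRGs, against 10930.4, 11941 and 12169.6 in control DRGs (log2 fold change -0.01, SE 0.12). Dynll2 read 8841, 9556 and 10378 in Meis1cko DRGs, against 9284, 9257 and 9874 in control DRGs (0.02, SE 0.12). Both pairs of groups overlapped. Dynlrb1, a roadblock light chain, read 4262, 4438 and 4463 in Meis1cko DRGs, against 4744, 4647 and 4937 in control DRGs. Its groups did not overlap, but the difference was small (log2 fold change -0.12, SE 0.11). Dynlt3, the other Tctex-type chain, differed by less than 0.01 on the log2 scale in its brightest set, and Dynlrb2 was below the median intensity and overlapped.

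The 5 subunit genes of cytoplasmic dynein-1, the motor of retrograde axonal transport, were all within 0.2 of 0. Dync1h1, the heavy chain that walks and burns ATP, read 6035, 4979.9 and 4341 in Meis1cko DRGs, against 4657, 4882 and 4029 in control DRGs. The values overlapped, with the highest on Meis1cko replicate 1 (log2 fold change 0.17, SE 0.16, 95% interval -0.20 to 0.54). Dync1i1, the intermediate chain enriched in neurons, read 3179, 3555 and 3133 in Meis1cko DRGs, against 3128, 3375 and 2969 in control DRGs (0.06, SE 0.12). Dync1i2, the widely expressed intermediate chain, read 6504, 5956 and 5560.0 in Meis1cko DRGs, against 5949, 5999 and 6211 in control DRGs (-0.01, SE 0.12). The intervals of both intermediate chains stayed within 0.34 of 0. The light intermediate chains Dync1li1 and Dync1li2, which hold the adaptors, differed by -0.12 (SE 0.15) and -0.06 (SE 0.15). Cytoplasmic dynein-2 moves cargo back along the cilium, and its heavy chain Dync2h1 (-0.01, SE 0.13) and light intermediate chain Dync2li1 (-0.05, SE 0.11) overlapped between genotypes.

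Dynactin, the complex that ties dynein to cargo and microtubule, had a median log2 fold change of -0.11 over its 6 genes, with 4 below 0. Dctn1, the large p150 subunit that grips the microtubule, read 5906, 6389.6 and 5894 in Meis1cko DRGs, against 6403, 6314 and 5335 in control DRGs. Its groups overlapped (log2 fold change 0.01, SE 0.12). Dctn3, the p24 shoulder subunit, read 4381, 4734 and 4684 in Meis1cko DRGs, against 5129, 4865 and 5092 in control DRGs. All Meis1cko values were lower, by a log2 fold change of -0.13 (SE 0.11) that is near the standard error. Dctn2, Dctn5 and Dctn6 overlapped, with log2 fold changes of -0.10, -0.23 and 0.14, and their standard errors were between 0.18 and 0.31. Within arrays of the same number, Dctn2, Dctn3, Dctn4 and Dctn5 were lower in Meis1cko DRGs in all 3 pairs. Of the 59 members 11 were (18.6%), against 17.2% of all genes, and none of the 4 dynactin genes was called by its brightest set with the replicate block.

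Dctn4, the p62 subunit at the pointed end of the dynactin filament, had 6 probe sets, 5 of them at or above the median intensity. The brightest read 2249, 2179.5 and 2382 in Meis1cko DRGs, against 2517, 2549 and 2847 in control DRGs (log2 fold change -0.22, SE 0.12). A dimmer set read 185, 139 and 252 in Meis1cko DRGs, against 327, 373 and 494 in control DRGs (-1.07, SE 0.25). In both sets the Meis1cko arrays were all below the control arrays. The dimmer set was not called in limma, also with the replicate block (adjusted p = 0.0633), and leaving out any array kept it between -1.29 and -0.86. The other sets of the gene lay between -0.38 and 0.10, and their groups overlapped, so the size of the Dctn4 difference rests on which probe set is read.

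Kinesin-1, the main motor of fast outward transport in axons, is made of Kif5 heavy chains and Klc light chains. Kif5a read 6836, 7017 and 7402 in Meis1cko DRGs, against 6997, 6642 and 7348 in control DRGs. The values overlapped, and the interval of the log2 fold change (0.02, SE 0.11) ran from -0.24 to 0.28. Kif5b, the form found in most tissues, read 5177, 4399 and 3836 in Meis1cko DRGs, against 5189, 4856 and 4411 in control DRGs (-0.12, SE 0.15). Its groups overlapped too, and replicate 3 was the lowest in each genotype. The 5 Kif5b sets at or above the median ranged over 1.21 on the log2 scale, mostly through single arrays. The lowest of these fold changes, -0.88 (SE 0.55), came from 809 on Meis1cko replicate 2, where the other Meis1cko arrays read 3375 and 3655 and those of control mice 3117, 5019 and 3943. The highest, 0.33 (SE 0.29), came with 2552, 3121 and 2365 in Meis1cko DRGs, against 2760.3 and 2629 in control replicates 2 and 3 and 1303 in control replicate 1.

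Kif5c, a form enriched in neurons, gave a different answer in its bright and in a dim probe set. The brightest read 7860, 7852 and 6751 in Meis1cko DRGs, against 7056, 7609 and 7032 in control DRGs (log2 fold change 0.05, SE 0.12, 95% interval -0.23 to 0.33). A dimmer set read 138, 173 and 132 in Meis1cko DRGs, against 355, 213 and 513 in control DRGs. Here all Meis1cko values were below all control values, and control replicates 1 and 3 were the high ones. The log2 fold change of the dimmer set was -1.21 (SE 0.31), not called in limma with or without the replicate block (adjusted p = 0.322 with it). It was -0.83 without both replicate 3 arrays and between -1.54 and -0.91 when a single array was left out. The second brightest set differed by -0.17 (SE 0.14) with overlap. With the mean of all Kif5c probe sets in place of the brightest, the sign turned and the log2 fold change was -0.36, which limma did not call after adjustment. The study lists Kif5c among the changed genes of these same arrays, so the dimmer set is not independent of that choice.

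With the fold over 1.5 and an unadjusted limma p under 0.05, 3 of the 141 member probe sets (2.13%) passed, against 0.73% of all probe sets of a single gene. They were the Dynlt1f set and the dimmer sets of Kif5c and Dctn4. Of the 36 genes with several probe sets, 24 had log2 fold changes of both signs. Of the 22 with several sets at or above the median, 4 ranged over more than 0.5: Kif5c by 1.25, Kif5b by 1.21, Kif1b by 0.57 and Dctn4, whose sets lay between -1.07 and -0.07.

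**Figure D3:**
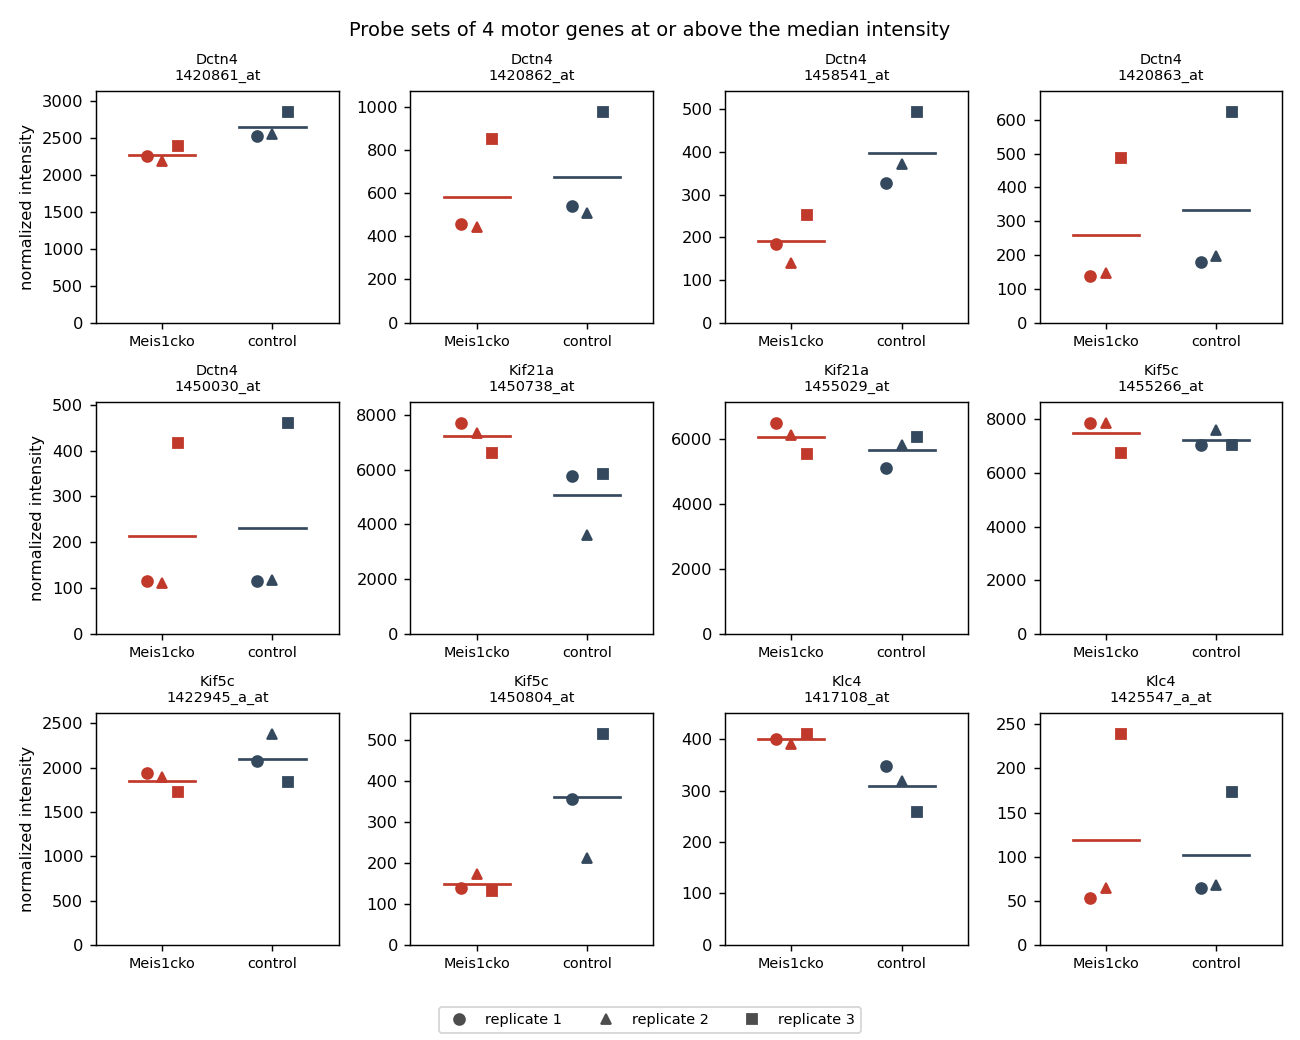
Normalized intensity (linear y axes from 0, each panel with its own scale) in each array for each probe set of median intensity or more of Dctn4, Kif21a, Kif5c and Klc4, Meis1cko on the left and control on the right, with marker shapes for the replicate and a line at the group mean. The brightest Kif5c set overlaps (6751 to 7860 against 7032 to 7609) and a dimmer one does not (132 to 173 against 213 to 513).

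Among the light chains, Klc1 was close in both genotypes. Its brightest set read 15085, 15401 and 14914 in Meis1cko DRGs, against 14454, 14962 and 15534 in control DRGs (log2 fold change 0.01, SE 0.11). Klc4, a less studied light chain, read 401, 391 and 409 in Meis1cko DRGs, against 349, 319 and 259 in control DRGs. The Meis1cko arrays lay close together and above the controls, with a log2 fold change of 0.39 (SE 0.14) that limma did not call. It was 0.25 without both replicate 3 arrays, and a second Klc4 set differed by 0.04 (SE 0.62). Klc3 lay around the median intensity and differed by 0.01 (SE 0.16). Klc2 had no probe set listed for it alone and was not analysed here.

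Kinesin-2 motors carry vesicles in axons and trains of intraflagellar transport in cilia. Kif3a read 1569, 1837 and 1725 in Meis1cko DRGs, against 1857, 1838 and 1663 in control DRGs (log2 fold change -0.06, SE 0.12). Kif3b, its partner, read 372, 343 and 394 in Meis1cko DRGs, against 358, 362 and 349 in control DRGs (0.05, SE 0.11). Both overlapped, as did Kif3c and Kif17 at 0.06 and 0.05. In kinesin-3, which moves synaptic vesicle precursors and dense-core vesicles, Kif1a read 332, 213 and 498 in Meis1cko DRGs, against 235, 226 and 550.4 in control DRGs. Replicate 3 was the highest in each genotype, and the interval of the log2 fold change (0.09, SE 0.42) ran from -0.89 to 1.08, the widest of all members. Kif1b, whose forms carry mitochondria or vesicle precursors, read 7591, 8391 and 9575 in Meis1cko DRGs, against 7749, 7987 and 9001 in control DRGs (0.04, SE 0.14). The endosomal motors Kif13a, Kif13b and Kif16b differed by 0.10, 0.07 and 0.17 and overlapped, and Kif1c differed by -0.14 (SE 0.38).

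Kif21a of the kinesin-4 group, which restrains microtubule growth and in humans is mutated in congenital fibrosis of the eye muscles, had the second largest log2 fold change among the brightest probe sets of the members. Its brightest set read 7702, 7333 and 6622 in Meis1cko DRGs, against 5752, 3613 and 5823 in control DRGs. The groups did not overlap, and control replicate 2 was far below the other controls. The log2 fold change was 0.54 (SE 0.20), and 0.32 without that array, and limma did not call it. A second Kif21a set read 6496, 6130 and 5539 in Meis1cko DRGs, against 5104, 5821 and 6061 in control DRGs, and overlapped (0.10, SE 0.13). Kif21b, Kif27, Kif4 and Kif7 overlapped between genotypes, with log2 fold changes between -0.12 and 0.06.

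**Figure D4:**
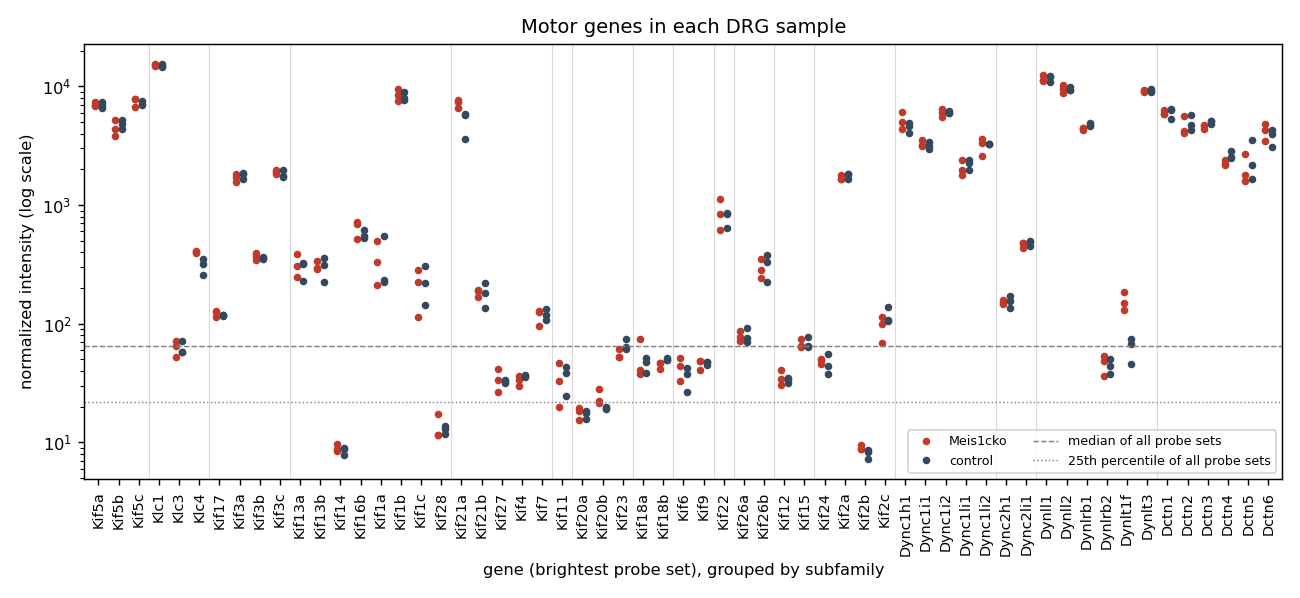
Normalized intensity (log y axis) of the brightest probe set of each of the 59 motor genes in each array, Meis1cko left of control for each gene, with subfamilies set apart by vertical lines and the median (64.8) and 25th percentile (22.1) of all probe sets as horizontal lines. Of the 59 genes 42 lie at or above the median, and the genotypes fall together for most of them; heights of different genes are not comparable.

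The 11 kinesins of cell division had a median log2 fold change of -0.02, with 5 above 0 and 6 below. Kif11, which pushes spindle poles apart, read 46.3, 32.8 and 19.9 in Meis1cko DRGs, against 43.2, 38.1 and 24.6 in control DRGs, and overlapped. Kif22, which binds chromosome arms, differed by 0.11 (SE 0.24), and Kif23, a motor of cytokinesis, by -0.26 (SE 0.13). Kif20b differed by 0.29 (SE 0.14). The microtubule depolymerase Kif2c differed by -0.34 (SE 0.21), the lowest among the brightest sets. A dimmer Kif22 set differed by 0.53 (SE 0.22) and another by -0.11 (SE 0.17), both with overlap. The dimmer sets lay at -0.27 and 0.21 for Kif11 and at 0.12 and 0.05 for Kif23. They lay between -0.09 and 0.07 for Kif20b and between -0.10 and 0.04 for Kif2c. Other genes of mitosis leaned lower, with 18 of 19 below 0 and a median of -0.17. Their summed intensity was between 913 and 1119 in Meis1cko and between 994 and 1469 in control DRGs. These too were mostly dim, since 8 of the 19 reached the median intensity and 2 lay below the 25th percentile. Of the 19 genes, 1 had an unadjusted p under 0.05 (Ccna2, -0.44, SE 0.16) and 0 passed after adjustment in limma.

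The remaining kinesins, Kif2b aside, overlapped between genotypes in their brightest sets. Kif2a, another microtubule depolymerase, read 1798, 1669.8 and 1654 in Meis1cko DRGs, against 1815, 1824 and 1669.9 in control DRGs (log2 fold change -0.05, SE 0.11). The atypical kinesins Kif26a and Kif26b differed by -0.01 and -0.08. Kif6 and Kif9, known from motile cilia, were below the median intensity and differed by 0.28 (SE 0.23) and -0.02 (SE 0.12). Kif24, also below the median, differed by 0.10 (SE 0.16). A dimmer Kif24 set, below the 25th percentile, differed by -0.32 (SE 0.15) without overlap.

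Replicate 3 separated the motor probe sets more than the genotype did, which is given as a description. Over the 141 member probe sets, the median size of the log2 difference between both replicate 3 arrays and the other 4 was 0.18, against 0.09 between genotypes. The replicate difference was the larger in 104 of 141 (73.8%) and in 72.6% of all probe sets of a single gene. Both replicate 3 arrays were above the other 4 in 36 member sets (25.5%; 17.5% of all) and below them in 23 (16.3%; 25.7% of all). Of the brightest sets 11 were above and 12 below, and of the dimmer ones 25 were above and 11 below. Probe sets of the same gene went opposite ways in 6 genes (Dctn1, Kif1b, Kif21b, Kif22, Kif2a and Kif3a).

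Klc1 shows the size this reached. A set other than its brightest read 366, 304 and 5677 in Meis1cko DRGs, against 384, 341 and 5807 in control DRGs, so that the value jumped on replicate 3 of each genotype while the brightest Klc1 set stayed level over all arrays. A dim Kif2a set read 24.6, 23.2 and 94.5 in Meis1cko DRGs, against 21.3, 24.0 and 159.7 in control DRGs. The second Kif1a set read 196, 193 and 902 in Meis1cko DRGs, against 201, 185 and 745 in control DRGs. All of these were high on replicate 3 in both genotypes, with genotype differences of -0.09 (SE 1.42), -0.20 (SE 0.86) and 0.10 (SE 0.74). Kif1c went the other way and read 283, 223 and 115 in Meis1cko DRGs, against 307, 220.0 and 145 in control DRGs. Leaving out both replicate 3 arrays gave a log2 fold change of 1.23 for Dynlt1f and 0.72 for Kif21a, and a median of 0.01 over the 59 genes.

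**Figure D5:**
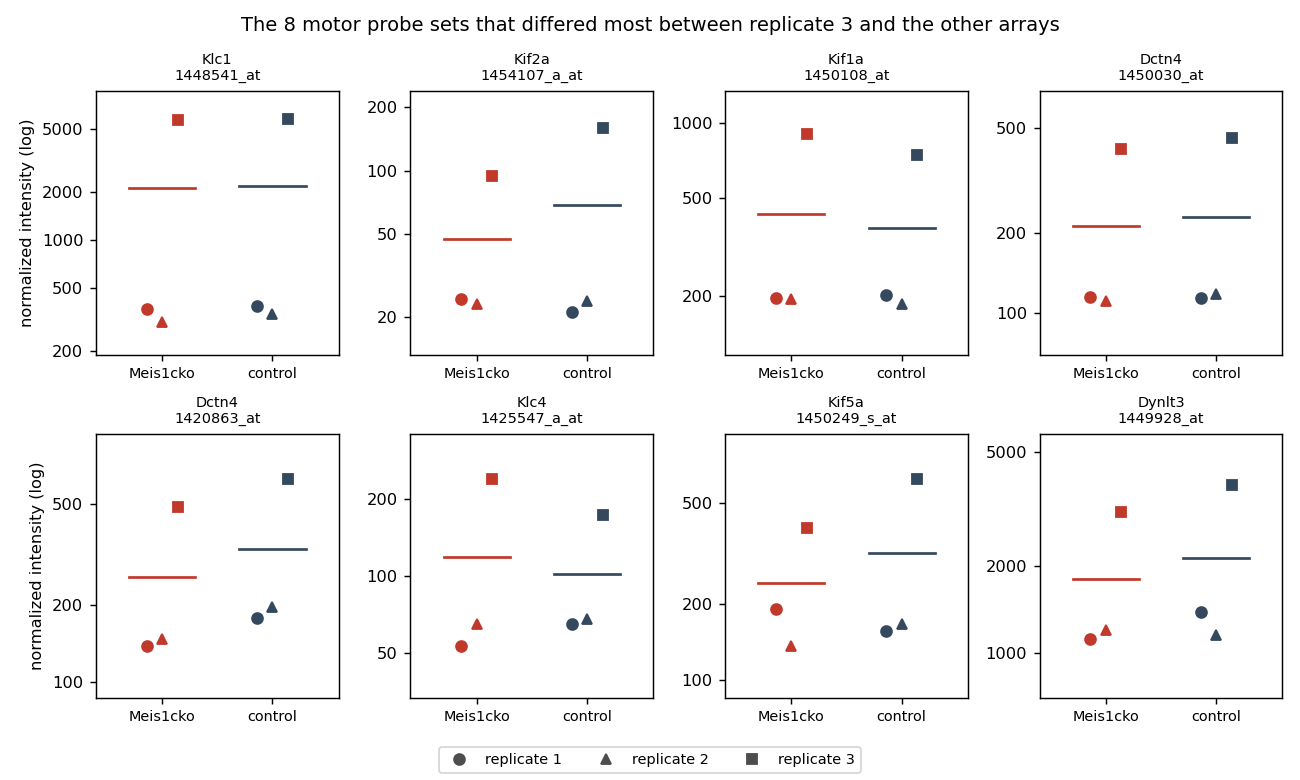
Normalized intensity (log y axes, each panel with its own scale) in each array for the 8 member probe sets with the largest difference between the replicate 3 arrays and the other 4, Meis1cko on the left and control on the right, with marker shapes for the replicate and a line at the group mean. The squares of replicate 3 stand far above the circles and triangles in both genotypes, for Klc1 at 5677 and 5807 against 304 to 384.

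Genes that work with the motors had medians close to 0. Dynein regulators and adaptors (18 of 19 measured) had a median log2 fold change of 0.04, with 10 above 0, and Bicd2, which joins dynein to dynactin and vesicles, differed by 0.24 (SE 0.11) without overlap. Kinesin adaptors (18 of 20) had a median of 0.01, and the smallest p belonged to Snapin at -0.22 (SE 0.13). Dynactin subunits outside the naming rule, among them the Arp1 gene Actr1a at -0.08 (SE 0.13), had a median of -0.04 over 4 of 6. Kinesins outside the rule, among them Kifc3 at -0.23 (SE 0.15), had a median of -0.03 over 6 of 6. In none of these lists did a gene have an unadjusted limma p under 0.05.

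Genes of the tracks had medians of the same size. Tubulins (14 of 16) had a median of 0.00, with 13 within 0.2 of 0 and Tuba8 at -0.20 (SE 0.18), and microtubule-associated proteins and tubulin-modifying enzymes (33 of 35) had a median of 0.00, with the end-binding gene Mapre1 at -0.26 (SE 0.15). Among the genes of intraflagellar transport, the ciliary trains that kinesin-2 and dynein-2 pull, all 24 were measured, with 12 above and 12 below 0. Ift122, a subunit of the returning train, read 3082, 3496 and 2399 in Meis1cko DRGs, against 2192, 2271 and 1598 in control DRGs. Every Meis1cko value was above every control value (log2 fold change 0.57, SE 0.20). Axonemal dyneins, which beat motile cilia, had a median of 0.02 over 15 of 18. Their Dnah8 read 74.8, 59.3 and 82.5 in Meis1cko DRGs, against 91.6, 99.9 and 91.3 in control DRGs, without overlap (-0.40, SE 0.15). These 2 genes had an unadjusted limma p under 0.05, and 0 genes of these lists passed after adjustment.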

How the data were processed

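DRG RNA of 3 Meis1cko and 3 control mice was hybridized to Affymetrix mouse genome arrays. The authors read the images with GeneChip Command Console, analyzed them in GeneSpring and called genes at a fold change over 1.5 and p under 0.05 in t-tests. The table that the authors deposited holds a normalized intensity per probe set and array, not logged; the methods do not name how probes were summarized and normalized, so the treatment of dim probe sets before deposit is unknown. The methods name an RNeasy kit for extraction and the labels name Trizol. The number of arrays limits the precision. The labels call the arrays biological replicates.

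Values were logged (log2) without an offset. The 64 control probe sets of 45101 were left out, and 45037 were tested with lmFit and eBayes in limma 3.58.1 (R 4.3.3), without a replicate block, with Benjamini-Hochberg adjustment and 0.05 as the threshold. Symbols are those of the array's annotation; all 59 member symbols are in the RefSeq table of GRCm38.p6, and promoter windows came from RefSeq. The script was tested on simulated data. The deviations of same-numbered arrays from their genotype's mean correlated at 0.424, 0.535 and 0.766. Replicates 1 and 2 also correlated across numbers, at 0.337 and 0.319, and replicate 3 correlated with the others between -0.600 and -0.517, so that the agreement of same numbers rests mostly on replicate 3. The labels do not say what the numbers mean. The fit with the replicate number as a block was therefore kept as an alternative and is given where it changes a call.

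The members and the 20 gene lists were chosen with earlier results of these data known. Array values are given for members at or above the median intensity with groups that do not overlap (up to 8 per direction, smallest p), for a list of core axonal motors, for the Dynlt1 copies and for members whose probe sets past the thresholds of the methods disagree in sign with the brightest; of each list, up to 4 genes with the smallest p. Other per-array values were chosen after they had been seen. The remaining marker lists, with 0 adjusted calls each, had median log2 fold changes of 0.03 (nociceptors), 0.16 (large neurons), -0.03 (satellite glia), -0.04 (Schwann cells), 0.06 (mural cells), -0.03 (endothelium), -0.05 (blood) and -0.27 (skeletal muscle); those of general neurons were 0.04. Alternatives were a trend in eBayes, array weights, the methods' t-test, quantile normalization, arrays centred on their 75th percentile or their median, a filter on probe sets below the median or below the 25th percentile, an offset of 16 or 50 before log2, the replicate block, each replicate or both replicate 3 arrays left out, the mean of all probe sets of a gene and, added after seeing the data, counting shared probe sets.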

Additional observations from a re-analysis of the deposited data

How the results depend on the processing

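The count of member genes past an adjusted p of 0.05 was 0 under every alternative except 2: with array weights and with the replicate block it was 1 (Dynlt1f, adjusted p = 0.0189 and 0.0233 in limma). The replicate block changed no other call among the members. The methods' t-test called 0 after adjustment. The count past a fold of 1.5 with an unadjusted p under 0.05 was 1, and 2 (Dynlt1f and Kif21a) with array weights and without both replicate 3 arrays; leaving out 1 array gave between 1 and 2, with Kif21a added without Meis1cko replicate 3, control replicate 1 or control replicate 3. The median log2 fold change of the 59 genes was 0.016, and -0.019 with the mean of all probe sets of a gene; leaving out 1 array gave between -0.00051 (without control replicate 2) and 0.021. The log2 fold change of Dynlt1f was between 1.12 and 1.47 with 1 array left out, 0.87 with an offset of 50, and -1.01 when the probe sets shared by the Dynlt1 copies were counted for it, an alternative chosen after seeing the data, since their brightest set then stands for the gene. Array weights also gave an adjusted p of 0.0317 and 0.0298 to both shared Dynlt1 sets and of 0.0192 to the dimmer Dctn4 set. Of 1100 log2 fold changes of member genes under the alternatives, 104 had the other sign, in 36 of 59 genes. The trend in eBayes, the methods' t-test, the filters and the replicate block leave a log2 fold change as it is. Their values are counted among the 1100 and could not turn sign. Apart from Dynlt1f with the shared sets, the genes whose sign turned lay within 0.24 of 0 by their brightest set, Dctn5 at -0.23 the farthest. The values followed were those of the members, Meis1, the dimmer Kif5c and Dctn4 sets and both shared Dynlt1 sets. Of these, 1161 stayed within the SD of their replicates and on their side of the threshold, among them values that an alternative could not move. A further 23 moved by more than this SD, 5 newly passed the threshold and 1 was counted as reversed. Unadjusted p ranged over the arrays left out between 0.0198 and 0.0851 for Kif21a and between 0.0173 and 0.0953 for Klc4. With 3 arrays a group, intervals of many members reach beyond 0.3 on the log2 scale. Limma did not call larger differences either, such as Dynlt1f at 1.33 without the replicate block or array weights (adjusted p = 0.496). Kif21a at 0.54 and Meis1 at -0.74 were not called with or without these settings. The size of difference that would be called on these arrays is not given here.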
